A study of Mus musculus with 2 samples.

Results

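The genes described here are 9 genes of retinoid metabolism and retinoic acid binding: Rdh10, Dhrs9, Aldh1a1, Aldh1a2, Aldh1a3, Crabp1, Crabp2, Cyp26b1 and Rarb. They were chosen by name, with earlier results of these data known. Each was read from the 1 probe set that the platform annotation maps to that symbol alone. Of the 22180 genes with such a probe set, 9 are members. RNA came from 2 skin models grown in 3D from murine fibroblasts and keratinocytes. One model carried the Itih5 knockout and the other was the wildtype control, both are marked day 7 in their titles, and each was hybridised to 1 array. Per the labels, the cells came from the skin of adult, untreated mice and were passaged repeatedly, past the stage at which they needed a collagen coating. The number of mice behind each model, and the part of Itih5 that was removed, are not named in the labels.

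Retinol is taken up by cells, bound to small carrier proteins, and oxidised first to retinaldehyde and then to retinoic acid. Retinoic acid is handed by the CRABP carriers either to nuclear receptors, which switch genes on or off, or to CYP26 enzymes, which destroy it. In skin, retinoic acid is known for restraining the late differentiation of keratinocytes, and both keratinocytes and fibroblasts respond to it.

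Aldh1a1, 1 of the 3 retinaldehyde dehydrogenase genes, was the 1 readable member whose intensity differed by 2-fold or more, with 1138 in knockout against 364 in wildtype cells. Rdh10 and Dhrs9, whose products act 1 step earlier on retinol, read lower in the knockout model but under 2-fold. The carriers Crabp1 and Crabp2, the degrading enzyme gene Cyp26b1 and the receptor gene Rarb were also under 2-fold. Aldh1a2 lay at background in both models, and Aldh1a3 could not be read. Each group holds 1 array, so there is no replicate error to set a difference against, and no test was run.

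Values are array intensities on a linear scale in which the decimal point, lost from 67457 of the 67586 deposited values, was put back. For 6 members only 1 place was possible on both arrays. For Aldh1a1 and Crabp1 there were 2 possible places on the knockout array, and the likelier had probabilities of 0.993 and 0.995. For Aldh1a3 the likeliest of 4 combinations reached 0.83, under the required 0.95, so it was left undecided. A gene counted as expressed where the higher of its intensities reached 46.5, the median of all restored values. Both arrays had a 5th percentile of 21.4, and their medians were 46.3 (knockout) and 46.7 (wildtype). Itih5 itself read 30.4 in knockout and 29.8 in wildtype cells, below the threshold in both, so it checks neither label.

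**Figure D1:**
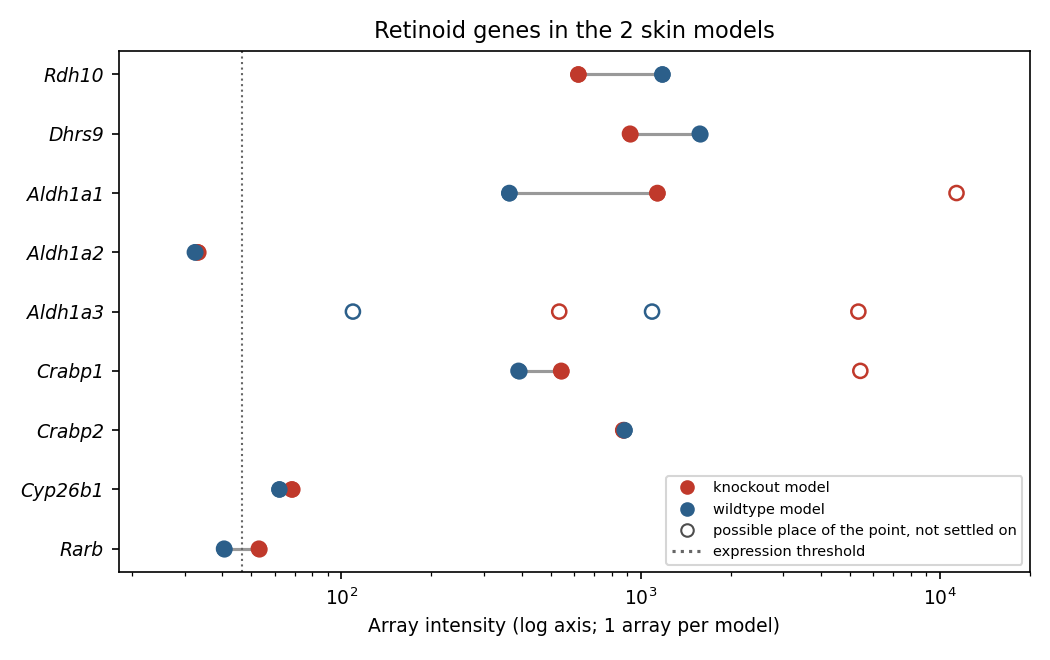
Intensity of each of the 9 genes (log axis) in the knockout model (red) and the wildtype model (blue), 1 array each, with filled points for restored values and open points for other possible places of the decimal point. Aldh1a1 has the widest gap among the restored genes, 1138 against 364, and the open points of Aldh1a3 (535 or 5347 against 109 or 1092) allow either order.

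The first oxidation, from retinol to retinaldehyde, is represented by 2 members. Rdh10 encodes the retinol dehydrogenase that limits retinoic acid supply in the embryo, and it read 619 in knockout and 1183 in wildtype cells. This is a log2 difference, knockout minus wildtype, of -0.93, or 1.91-fold lower. Dhrs9, a short-chain dehydrogenase gene active on retinol and expressed in differentiating epithelium, read 922 in knockout and 1578 in wildtype cells, a log2 difference of -0.78 or 1.71-fold lower. Both were therefore lower in the knockout model, and each has 1 possible place of its point. Among 12712 expressed genes, 483 (3.80%) were at least as low as Rdh10 and 666 (5.24%) at least as low as Dhrs9.

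The second oxidation makes retinoic acid and is irreversible. Aldh1a1 read 1138 in knockout and 364 in wildtype cells, a log2 difference of 1.64 or 3.13-fold higher. The less likely place would put the knockout value at 11382, 31.3-fold higher, so the gene was past 2-fold at either place. Only 116 expressed genes (0.913%) were at least as high as Aldh1a1 at its likelier place. Aldh1a2, the main enzyme gene of the early embryo, read 33.0 in knockout and 32.4 in wildtype cells, both below the threshold. Aldh1a3, an enzyme gene of epithelia, read 535 against 1092 at its likeliest places, which would be 2.04-fold lower in the knockout model. The 3 other combinations, with probabilities of 0.11, 0.055 and 0.0069, would all put it higher, by 4.89-fold in 2 of them. The direction of Aldh1a3 is therefore not known, and neither is the balance of Aldh1a1 and Aldh1a3.

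CRABP2 delivers retinoic acid to its receptors in the nucleus, whereas CRABP1 is associated with its retention and breakdown in the cytoplasm. Crabp2 read 875 in knockout and 883 in wildtype cells, a log2 difference of -0.01. These values are nearly equal, and 97.1% of expressed genes were at least as far apart. Crabp1 read 543 in knockout and 391 in wildtype cells, a log2 difference of 0.47 or 1.39-fold higher. Its less likely place, with a probability of 0.0045, would give 5429 and 13.9-fold.

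Cyp26b1 and Rarb are genes that retinoic acid itself is known to induce, the first for an enzyme that breaks it down and the second for the beta receptor. Cyp26b1 read 68.2 in knockout and 62.1 in wildtype cells, a log2 difference of 0.14, with both values not far above the threshold. Rarb read 53.0 in knockout and 40.5 in wildtype cells, and since the latter lies under the threshold no fold is given. Both inducible genes thus had low intensities in both models.

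The Rarb promoter carries a well-known retinoic acid response element, and it is shown because the gene serves as a readout of retinoic acid. RefSeq promoter windows (GRCm38.p6, 250 bases before to 50 after a start) were found for 6 of the 9 members, not for Aldh1a3, Rdh10 or Crabp2. They were searched on both strands for 2 half-sites in the same orientation, with 5 bases between them. A half-site was the consensus AGGTCA, or the form AGTTCA, or one of the related forms GGTTCA and GGGTCA, which are common variants of it. The repeat was present in 1 of 7 windows of members, that of Rarb, and in 1 of 94 windows of the 66 other retinoid genes with one, that of Cyp26a1. Among all 32851 windows, 32 (0.0974%) held it. The 100 bases before each start follow, 5′ to 3′ on the gene's strand, with only the 2 half-sites of the repeat in capitals. Rarb lies on the minus strand, at chr14:16575477-16575576, and Cyp26a1, a second retinoic acid hydroxylase gene, on the plus strand, at chr19:37697708-37697807.
Rarb: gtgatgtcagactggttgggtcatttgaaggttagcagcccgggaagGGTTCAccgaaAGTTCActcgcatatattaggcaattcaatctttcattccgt
Cyp26a1: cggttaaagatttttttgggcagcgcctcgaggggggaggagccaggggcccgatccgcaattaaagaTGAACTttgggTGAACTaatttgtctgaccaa
The repeat spans 53 to 37 bases before the Rarb start. In Cyp26a1 it spans 32 to 16 bases before the start and reads on the opposite strand, so that TGAACT is the reverse complement of AGTTCA. Cyp26a1, named here for its promoter and not by its values, read 31.4 in knockout and 28.1 in wildtype cells, below the threshold in both. The elements of Rarb and Cyp26a1 were known beforehand and belong to the cases from which this pattern was described, so finding them here is no result, and a match of letters describes the sequence only.

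**Figure D2:**
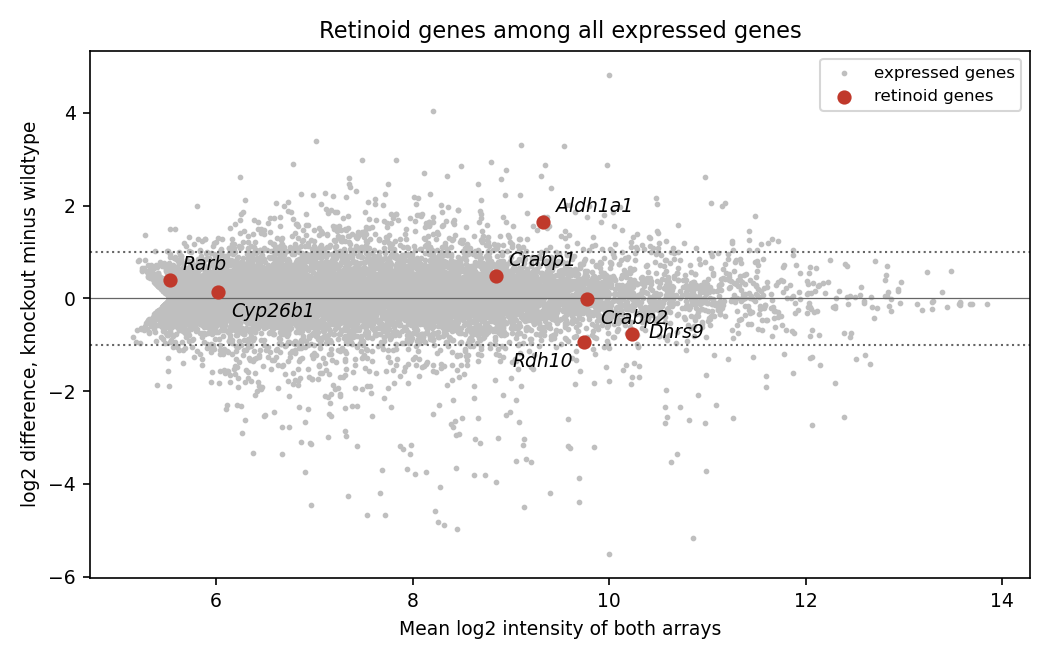
Log2 difference, knockout minus wildtype, against the mean log2 intensity of both arrays for the expressed genes (grey) and the 7 restored and expressed retinoid genes (red), with dotted lines at 2-fold. Aldh1a1 lies above the upper line at 1.64, and Rdh10 lies just inside the lower line at -0.93.

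Of the 9 members, 8 were restored, 7 of these were expressed and 6 were at or above the threshold on both arrays. Of the 7, 1 reached 2-fold upward in the knockout model and 0 downward, where 3.84% of all expressed genes did so upward, 3.32% downward and 7.16% in either direction. At 1.5-fold the count was 1 higher, Aldh1a1, and 2 lower, Rdh10 and Dhrs9, against 11.4% and 8.29% of all expressed genes, or 19.7% in either direction. The median log2 difference of the 7 was 0.14, and that of all expressed genes was 0.04, with 80.3% of them within 1.5-fold. Of the 7, 4 were above 0 and 3 below, a split that cannot be read as a direction of the set. It counts Rarb, under the threshold in wildtype cells, and Crabp2, whose sign changed with columns divided by their medians.

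The rest of the pathway was read from 6 lists holding 90 other genes, of which 82 had a probe set of their own, 8 were undecided, 24 lay below the threshold and 50 were expressed. Of the 50, 2 (4.0%) reached 2-fold upward and 5 (10.0%) downward, where 3.84% and 3.32% of all expressed genes did. The median log2 difference of the 50 was -0.01. Of the 2 higher genes, Rorb was under the threshold in wildtype cells and counted as expressed through the knockout array alone. The lists were chosen with earlier results of these data known, so these shares are no measure of an excess. The undecided genes were Rdh11, Rdh19, Sdr16c6, Ncoa1, Tgm1, Tgm2, Pdk4 and Gprc5a.

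Genes for the uptake, binding and storage of retinol had 4 expressed members, of which 1, Rbp2, was past 2-fold, downward. By that measure 3.32% of all expressed genes were lower and 3.84% higher. Rbp2, the gene of cellular retinol-binding protein 2, a carrier that presents retinol to enzymes, read 312 in knockout and 1888 in wildtype cells, 6.04-fold lower. The other possible place, with a probability of 0.00056, would make the gap wider, and a second probe set of Rbp2 also read lower, at 43.7 against 110.3. Stra6, the gene of the membrane receptor for retinol, read 104 against 199.6, 1.92-fold lower and so under 2-fold. Dgat1, an acyltransferase gene of lipid and retinyl ester storage, read 564 against 438, and Stra6l, a related receptor gene, 59.4 against 53.9. Lrat, the main retinol esterification gene, was among 7 genes below the threshold.

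Among other enzymes of retinol and retinaldehyde, 1 of 15 expressed genes was past 2-fold in each direction. Of all expressed genes, 3.84% were past it upward and 3.32% downward. Adh1, a cytosolic alcohol dehydrogenase gene whose product can oxidise retinol, read 383 in knockout and 76.6 in wildtype cells, 5.00-fold higher, with 1 possible place of its point. A second Adh1 probe set read 25.2 against 26.1, below the threshold in both models, and did not show this difference. Rdh12, whose product mainly reduces retinaldehyde to retinol, read 75.2 in knockout and 292 in wildtype cells, 3.88-fold lower, and its other possible place, with a probability of 0.00025, would widen the gap. Adh7, an epithelial alcohol dehydrogenase gene with activity on retinol, read 333 against 354. Adh5, which encodes a formaldehyde-handling dehydrogenase, read 307 against 206, Dhrs7 293 against 205 and Akr1b10, an aldo-keto reductase gene, 281 against 240. The list's median was -0.05. Higher Aldh1a1 and Adh1 were thus seen beside lower Rdh12 and Rbp2, and these 4 differences rest on the same 2 arrays.

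**Figure D3:**
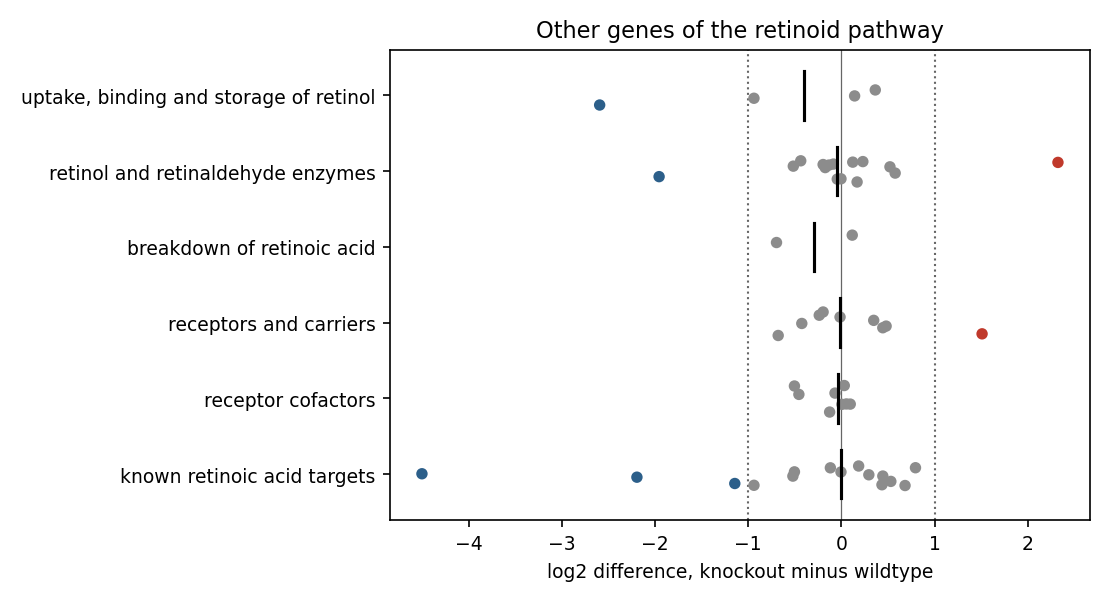
Log2 difference, knockout minus wildtype, of each expressed gene in the 6 lists of other retinoid genes, with red points at least 2-fold higher, blue points at least 2-fold lower, and a black bar at the list's median. List medians run from -0.40 to -0.01, and the outlying genes include Adh1 at 2.32, Rbp2 at -2.59 and Krt13 at -4.50.

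Most receptors and their partners were under 2-fold apart. Of 9 expressed receptor and carrier genes, 1 was at least 2-fold higher and 0 were lower (median -0.02). Of all expressed genes, 3.84% were higher and 3.32% lower by that measure. That gene, Rorb, which encodes an orphan receptor related to the retinoid receptors in sequence, read 119 in knockout and 41.8 in wildtype cells, where it was under the threshold. Fabp5, the gene of a carrier that can pass retinoic acid to PPAR-delta, read 3377 against 5408, 1.60-fold lower, and Ppard, the gene of that receptor, 1194 against 1207. Rxra, the common partner of retinoic acid receptors, read 628 against 494, and Rxrb 137 against 184. Rara and Rarg, named for their kinship with Rarb after their values were seen, read 132 against 97.4 and 111 against 127. Among 8 expressed cofactor genes none was 2-fold apart, the lowest being Nrip1 at -0.50. The deacetylase gene Hdac3 (1845 against 1779), the acetyltransferase genes Crebbp (1399.6 against 1469) and Ep300 (998 against 935), and the mediator gene Med1 (658 against 719) were close to equal.

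The list chosen for the breakdown of retinoic acid, without Cyp26b1, had 2 expressed genes, both under 2-fold. It was set by name, and whether each product acts on retinoic acid in these cells was not tested. Cyp2s1 read 63.7 in knockout and 103 in wildtype cells, and Cyp1b1 119 against 110.0. Cyp26c1 was below the threshold in both models, as Cyp26a1 was.

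Of 15 expressed genes known as retinoic acid targets in some tissue, 3 (20.0%) read lower by 2-fold or more and 0 higher, with a median of -0.01. By that measure 3.32% of all expressed genes were lower and 3.84% higher. This list too was chosen with earlier results of these data known, so the 20.0% is no measure of an excess. Its 3 lower genes are also among the 5 counted above for the 50 genes. Krt13, a keratin gene of internal stratified epithelia, read 118 in knockout and 2666 in wildtype cells, 22.7-fold lower. Hbegf, the gene of a heparin-binding growth factor of the EGF family, read 159 against 726, 4.58-fold lower. Foxa1, a transcription factor gene, read 46.5 in the knockout model, at the threshold, and 103 in the wildtype model. Of the others, Meis2 read 471 against 384, Nrip1 281 against 398, Lmo4 391 against 226, and Dhrs3, which encodes a retinaldehyde reductase and is a common target, 219.8 against 221.

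The models differed in their cell type markers, which is given beside the values above. Basal keratinocyte markers lay below 0 in 5 of 5 expressed cases, 3 of them past 2-fold, and the summed intensity of that list was 0.409 of the wildtype value (7731 against 18882). Of 10 expressed suprabasal markers, 7 were at least 2-fold lower and 0 higher, with a summed intensity of 3684 against 16510. Among those under 2-fold, Krt1 and Flg were under the threshold in knockout cells and counted as expressed through the wildtype array alone. Ivl was nearly equal (143 against 141). Fibroblast markers lay above 0 in 10 of 10 expressed cases, past 2-fold for Col1a1 and Twist2, and summed to 18363 against 11168. Such sums are weighted to the brightest genes, here Vim (6479 against 3665) and Postn (4056 against 3307). Lower Rdh10, Dhrs9, Rbp2 and Rdh12 had the sign of most keratinocyte markers, and higher Aldh1a1, Adh1 and Crabp1 that of fibroblast markers. These lists lay mostly on opposite sides of 0, so any gene that differs shares its sign with keratinocyte or fibroblast markers. The shared signs were therefore fixed beforehand and are no result. The part of the cell mixture in the differences of these retinoid genes was not tested. In such bulk RNA, fewer cells of a type and less RNA per cell cannot be told apart.

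Of 4 expressed adipocyte markers, 3 were past 2-fold upward, where 3.84% of all expressed genes were higher and 3.32% lower by that measure. But Lpl (84.7 against 42.3) and Cd36 (83.9 against 33.5) were under the threshold in wildtype cells. These genes counted as expressed through the knockout array alone. Fabp4 read 4974 against 816, whereas the defining gene Adipoq was below the threshold in both models (28.7 against 30.4). Of 4 expressed melanocyte markers, Mlana (705 against 109) and Mitf (464 against 215) were past 2-fold upward, with Tyr, Tyrp1 and Dct below the threshold. The other expressed ones were under 2-fold, Pmel at 69.2 against 56.5 and Sox10 at 51.3 against 66.4. The dermal papilla and hair follicle list had 0 of 6 expressed genes at least 2-fold apart (summed 543 against 466). Single markers past 2-fold upward were Cd14 of 3 expressed macrophage genes (551 against 240.2) and Kdr of 2 endothelial genes (87.4 against 36.1, under the threshold). The other expressed macrophage genes, Cd68 (861 against 1161) and Lyz2 (151 against 203), read lower in the knockout model. Vwf, the other expressed endothelial gene, read 50.4 against 53.0. Ngfr of 2 Schwann cell genes was past 2-fold downward (57.2 against 117). All 4 readable T cell markers lay below the threshold, as did the endothelial genes Pecam1, Cdh5, Tek and Emcn and the macrophage and Langerhans cell genes Adgre1, Csf1r and Cd207.

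**Figure D4:**
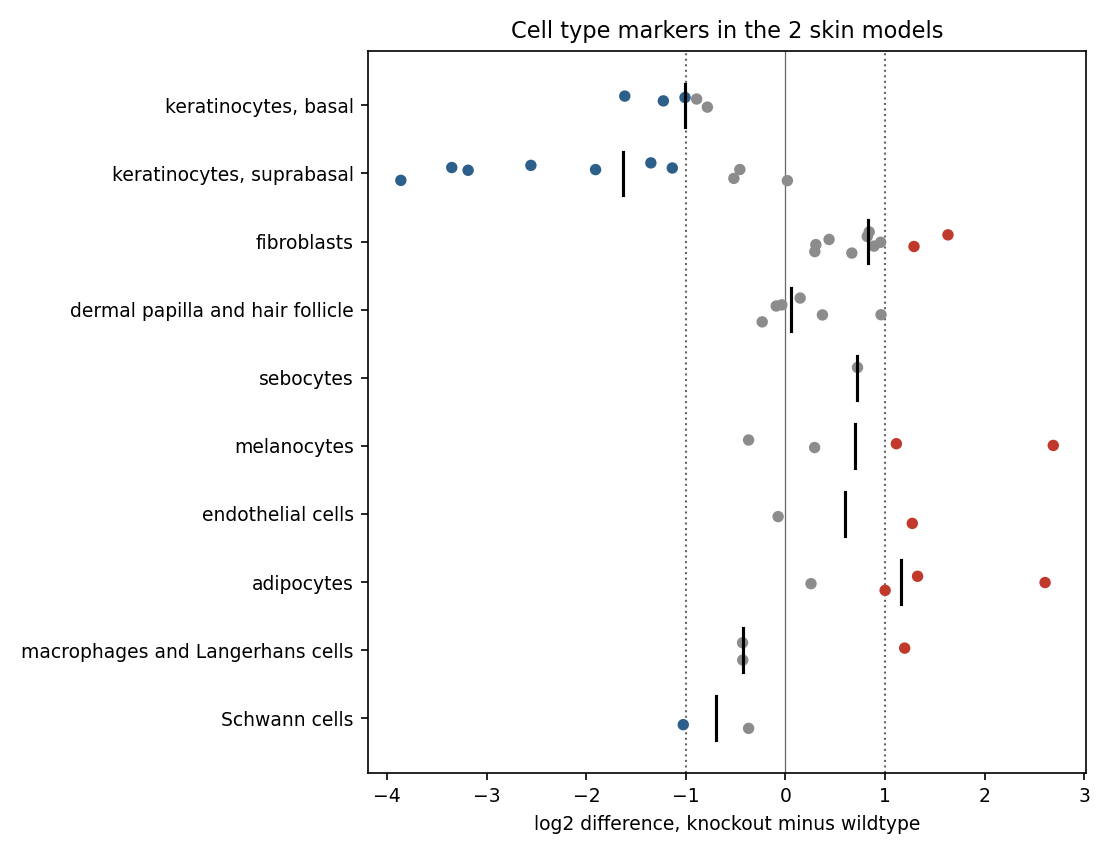
Log2 difference, knockout minus wildtype, of each expressed cell type marker, with red points at least 2-fold higher, blue points at least 2-fold lower, and a black bar at the list's median. The medians are -1.01 for basal and -1.63 for suprabasal keratinocytes and 0.83 for fibroblasts.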

How the data were processed

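Per the labels, total RNA of each model was amplified (WT Expression Kit, Ambion) and biotin-labelled for Affymetrix arrays. The authors deposited probe set intensities, for which no label names the summary of probes or the normalization. The lost decimal point was put back where the number was the shortest form of a single-precision value between 18 and 20000, with at least 3 decimals, and a power of 2 with a single-precision exponent. Of several such places the joint distribution of level and difference over 33793 probe sets (25 rounds of expectation maximisation) gave a probability, kept at 0.95 or more. In this way 31873 probe sets (94.3%) were restored, with 50.6 misplaced ones expected by those probabilities, and 1920 stayed undecided. These settings were chosen after the values were seen, and the procedure was tested on simulated data. No further normalization was applied. Genes with more than 1 probe set were read from that of highest mean. Python 3.11.15, NumPy 2.4.6 and pandas 2.3.3 were used. Members and lists were chosen with earlier results of these data known. Named genes are all members, the listed genes at least 2-fold apart and, of each list, up to 4 others of highest intensity. Others are named as undecided, as below the threshold on an array, or beside the count of a marker list. Rara, Rarg and Cyp26a1 are named for the reasons given with them. The number of arrays limits the precision.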

Additional observations from a re-analysis of the deposited data

How the results depend on the processing

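Of the 12 alternative settings only 4 rescale the intensities and could move a member difference, and all 32 values they gave lay within 1.5-fold of the main ones. Crabp2, near 0, ranged from -0.04 to 0.00077 and so changed sign with columns divided by their medians. Aldh1a1 ranged from 1.60 to 1.70, Rdh10 from -0.96 to -0.92, Dhrs9 from -0.79 to -0.76 and Rarb, near background, from 0.29 to 0.73. With only 1 possible place allowed, Aldh1a1 was left out, so 0 members and 312 of all genes (3.77%) were at least 2-fold higher. With every likeliest place, Aldh1a3 joined as 1 lower member, and 9 other retinoid genes were lower. The genes in all rose too at this setting, to 666 higher (4.91%) and 606 lower (4.47%). A threshold of 1.5-fold gave, by construction, 2 lower members, 4 higher and 8 lower other retinoid genes, and 1449 higher and 1054 lower genes in all. One of 3-fold gave 1 higher and 4 lower other retinoid genes, and 128 higher (1.01%) and 187 lower (1.47%) genes in all. The 75th percentile filter left 1 higher and 4 lower other retinoid genes, and 432 higher (5.87%) and 353 lower (4.80%) genes in all. With a pseudocount of 16, the lower other retinoid genes were 4 instead of 5, and 2.78% of all genes were lower. They were also 4 with only 1 possible place allowed, where 3.49% of all genes were lower. Subtracting the 5th percentile, where low intensities are stretched, gave 6 lower other retinoid genes, and 824 higher and 635 lower (4.99%) genes in all. No paired analysis was possible because both groups hold a single array. Differences near the background are compressed, and a gene that differs is more often undecided.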
